A study of Mus musculus with 10 samples.

Results

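Rab GTPases are small proteins that switch between a GDP-bound resting state in the cytosol and a GTP-bound active state on membranes, where they recruit effectors that bud, move, tether and fuse vesicles. Exchange factors load them with GTP, GTPase-activating proteins switch them off, and GDP dissociation inhibitors take them back off the membrane. Each Rab marks a set of compartments, and macrophages use them to mature phagosomes, recycle surface receptors and release cytokines and granules. The genes described here are the Rab GTPases proper, taken as every gene whose symbol is Rab followed by a number and at most one letter and digit. The rule found 57 of the 16936 genes in the table and used no measured value. The 57 genes were sorted by the compartment with which each is best known to work: 7 of the early endosome, 11 of the late endosome, lysosome and lysosome-related organelles, 9 of recycling, 12 of secretion, 13 of the endoplasmic reticulum (ER) and Golgi, and 5 others. Many Rabs work at several compartments, so the classes are a way to order the genes.

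RNA was sequenced from mouse bone marrow-derived macrophages, cells grown from marrow with GM-CSF (50 ng/mL) over 7 days, in 2 groups of 5 samples. One group was left untreated and the other received PLG for 24 h, named as human plasminogen in the series' design text. The labels give no dose, strain, genotype or age, and name no control preparation, so plasminogen and anything else in the added material cannot be told apart. Nothing ties a replicate to a mouse or a culture, so p-values measure only how far these samples spread, and that spread may be technical.

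Levels are FPKM, fragments per kilobase of gene, scaled to the depth of the library, which can be compared between genes because they are per length. The reads on the table's genes, recovered from the steps of the FPKM, numbered 28426101 to 37680104 per untreated sample and 33547115 to 64214321 per PLG sample. For a gene of 1 kb, 1 read was therefore worth 0.0141 to 0.0313 FPKM. Of 8 macrophage marker genes all passed the filter, 2 of them higher and 5 lower with PLG, with a summed level of 5874 to 7395 FPKM untreated and 3137 to 3243 FPKM with PLG, and with the receptor Csf1r at 245 ± 6.91 (SD, n = 5) FPKM untreated and 214 ± 12.8 FPKM with PLG. Lyz2 sets the direction of that sum (5792 ± 561 and 2000.1 ± 77.9 FPKM). Without it the other 7 summed to 776 to 835 FPKM untreated and 1124 to 1249 FPKM with PLG. Cd14 sets the direction of the sum without Lyz2 (33.7 ± 2.92 FPKM untreated and 508 ± 48.1 FPKM with PLG). Of the rest, Adgre1 was also higher, Csf1r, Itgam, Cd68 and Mertk were lower, and Fcgr1 did not pass. The summed level of dendritic cell markers was 306 to 348 FPKM untreated and 678 to 749 FPKM with PLG, with 4 of 7 tested markers higher and 3 lower. Ccr7 sets the direction here (38.1 ± 10.8 and 542 ± 27.1 FPKM), and without it the sums were 274 to 303 and 168 to 185 FPKM. Neutrophil markers summed to 2.36 to 5.20 and 8.55 to 12.6 FPKM, with 3 of 7 tested, 2 of them higher, and with Mpo and Ly6g at 0 in the untreated group. Of mast cell and basophil markers 2 of 5 were tested and 1 was higher, and no marker of T and NK cells, B cells, erythroid cells or stroma reached the filter. The part of these cell types in the results below was not tested, and in bulk RNA fewer cells of a type and less RNA per cell cannot be told apart.

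Rab genes were tested with all others by limma on log2(FPKM + 1), with a filter of 1 FPKM in at least 5 of the 10 samples. Fold changes on this scale understate the change of low genes. A gene can also pass the filter through the 1 group in which it is high, among Rab genes and in the background alike. Of the 57 Rab genes 40 were tested, and 13 were higher and 12 lower with PLG at an adjusted p under 0.05, while 15 did not pass. Among all 9997 tested genes 29.1% were higher and 31.3% lower, so the share of Rab genes called was near the background. Counts of each class and list below are to be read beside these shares. Under quantile normalization the split was 12 higher and 17 lower, and over all tested genes 27.1% higher and 35.3% lower. The median log2 fold change of the 40 genes was -0.01, beside -0.018 for all genes. A log2 fold change of at least 1 in size was reached by 3 higher genes (Rab20, Rab32 and Rab27a) and 4 lower genes (Rab31, Rab19, Rab7b and Rab15), where the background was 8.35% of tested genes higher and 5.67% lower. For 20 of the 40 genes the PLG and untreated samples did not overlap, as for 47.2% of all tested genes. The summed level of all 57 Rab genes was 1009 to 1053 FPKM untreated and 997 to 1093 FPKM with PLG, ranges that overlapped.

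**Figure D1:**
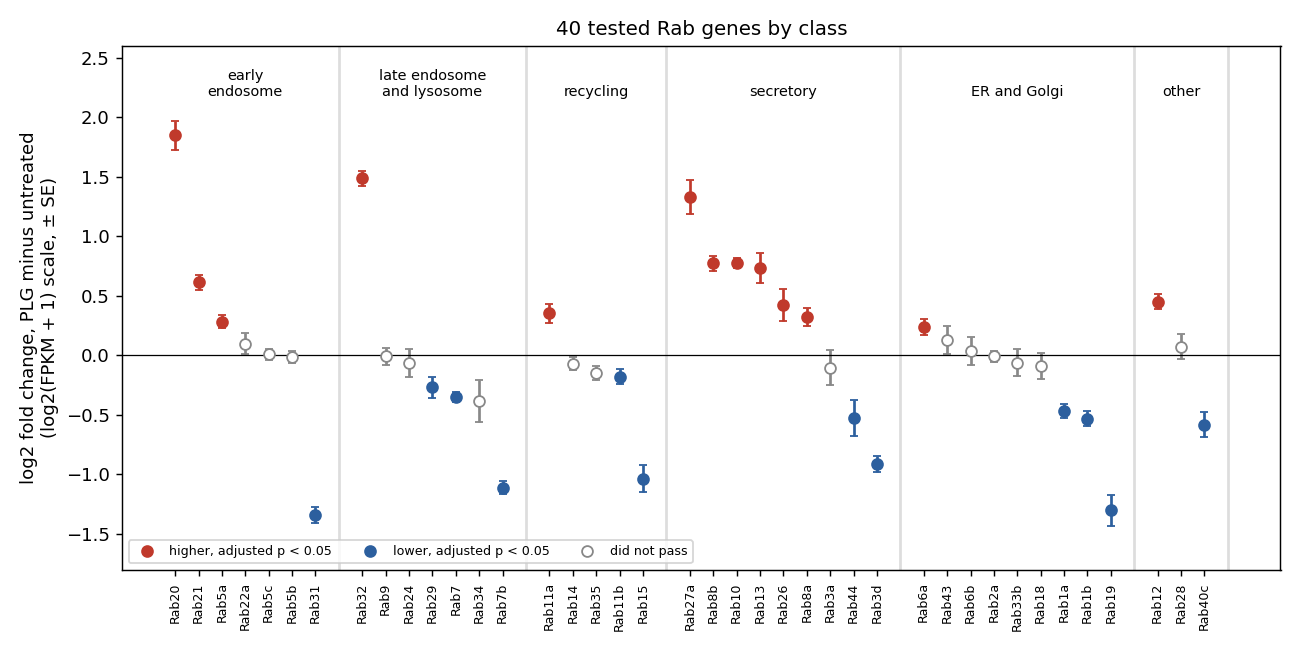
Log2 fold change with PLG (y axis, on the log2(FPKM + 1) scale, bars are SE) of the 40 tested Rab genes, ordered by class. Of the 9 tested secretory genes 6 are higher, while the ER and Golgi class has 1 higher and 3 lower, and Rab20 and Rab31, both of the early endosome, are at the ends of the scale.

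Early endosomal Rabs bring endocytosed cargo and new phagosomes into the first sorting station, and all 7 were tested, 3 higher and 1 lower. Their summed level was 202 to 213 FPKM untreated and 215 to 226 FPKM with PLG. Rab20 (ENSMUSG00000031504.6, chromosome 8, 11453518 to 11478710 on GRCm38), linked to phagosome maturation in macrophages, had the largest rise among the 40 tested genes on the log2(FPKM + 1) scale. It was at 3.65, 6.47, 4.73, 4.04 and 6.15 FPKM in untreated samples 1 to 5 and at 20.7, 18.7, 22.3, 19.5 and 20.4 FPKM in PLG samples 1 to 5. Every PLG sample lay far above every untreated one. The log2 fold change was 1.85 (standard error 0.120, adjusted p = 1.28e-08 in limma). An antisense gene, E230013L22Rik, overlaps the start of Rab20 and shares 22.9% of its 50-base windows, and the sources used here give no strand setting for the counting, so some reads may belong to that gene.

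Rab31 (chromosome 17, 65651729 to 65772752), which carries cargo between the trans-Golgi network and endosomes, had the largest fall on the same scale. In plain ratios of mean FPKM it fell 2.69-fold, less than Rab19 and Rab15 (2.94-fold each). Untreated samples 1 to 5 were at 26.2, 24.5, 26.8, 30.2 and 29.5 FPKM, and PLG samples 1 to 5 at 9.83, 9.50, 11.4, 10.2 and 10.1 FPKM. The groups lay wide apart, with a log2 fold change of -1.34 (standard error 0.067, adjusted p = 8.53e-10 in limma). Rab21, which moves integrins through endosomes, rose from 20.4 ± 1.43 to 31.8 ± 2.18 FPKM. Rab5a, which drives the fusion of early endosomes, rose from 11.6 ± 0.602 to 14.4 ± 0.786 FPKM. Rab5c, a close relative and the most abundant gene of the class, was at 97.2, 96.7, 107, 94.0 and 94.0 FPKM in untreated samples 1 to 5. In PLG samples 1 to 5 it was at 96.7, 98.9, 92.6, 99.8 and 104 FPKM, and it did not pass. It passed as lower under quantile normalization (log2 fold change -0.22), so its direction depends on the scaling. Rab5b (33.9 ± 1.67 untreated and 33.6 ± 1.73 FPKM with PLG) and Rab22a (10.8 ± 1.27 and 11.6 ± 1.32 FPKM) did not pass.

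Late endosomal and lysosomal Rabs deliver cargo for breakdown, and those of lysosome-related organelles build specialised stores such as pigment granules. Of 11 genes 7 were tested, 1 higher and 3 lower, and the summed level of the class was 306 to 325 FPKM untreated and 268 to 294 FPKM with PLG. Rab7 (chromosome 6, 87999106 to 88045270), the Rab of late endosome and lysosome fusion, was the most abundant Rab transcript in both groups. In untreated samples 1 to 5 it was at 215, 206, 212, 218 and 216 FPKM, and in PLG samples 1 to 5 at 173, 155, 173, 173 and 163 FPKM. All PLG samples were lower, by a log2 fold change of -0.35 (standard error 0.044, adjusted p = 1.08e-05 in limma). Its pseudogene Rab7-ps1 shares windows with it, 12.7% of the windows of Rab7 being shared with other genes.

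Rab7b (chromosome 1, 131688695 to 131715439), known for transport from endosomes to the trans-Golgi network and for limiting toll-like receptor signalling in macrophages, fell further. Its level was 38.8, 38.7, 41.7, 41.9 and 41.7 FPKM in untreated samples 1 to 5 and 19.2, 18.1, 16.8, 17.7 and 19.4 FPKM in PLG samples 1 to 5. Within each group the values were close together, and the log2 fold change was -1.11 (standard error 0.052, adjusted p = 3.72e-10 in limma). Rab32 (chromosome 10, 10545002 to 10558265), which builds lysosome-related organelles and acts at vacuoles that hold bacteria, moved the other way. Untreated samples 1 to 5 were at 21.8, 18.7, 20.6, 20.4 and 24.1 FPKM and PLG samples 1 to 5 at 59.0, 57.1, 63.7, 61.1 and 63.8 FPKM. The lowest PLG sample was above the highest untreated sample, and the log2 fold change was 1.49 (standard error 0.063, adjusted p = 1.48e-10 in limma). None of the 50-base windows of Rab32 was shared with another gene. Rab29, a partner of the kinase Lrrk2, fell from 11.6 ± 1.32 to 9.46 ± 1.05 FPKM with groups that overlapped, and did not pass without untreated 5 (limma adjusted p = 0.0505). Rab9, of retrieval from late endosomes (19.6 ± 2.29 and 19.4 ± 0.486 FPKM), Rab24, of autophagy (5.13 ± 1.11 and 4.8 ± 0.513 FPKM), and Rab34, of lysosome positioning (3.30 ± 1.13 and 2.25 ± 0.612 FPKM), did not pass. The level of Rab24 is uncertain, since 49.6% of its windows occur in Prelid1 on the opposite strand. Rab34 passed as lower without PLG 3 or untreated 2.

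**Figure D2:**
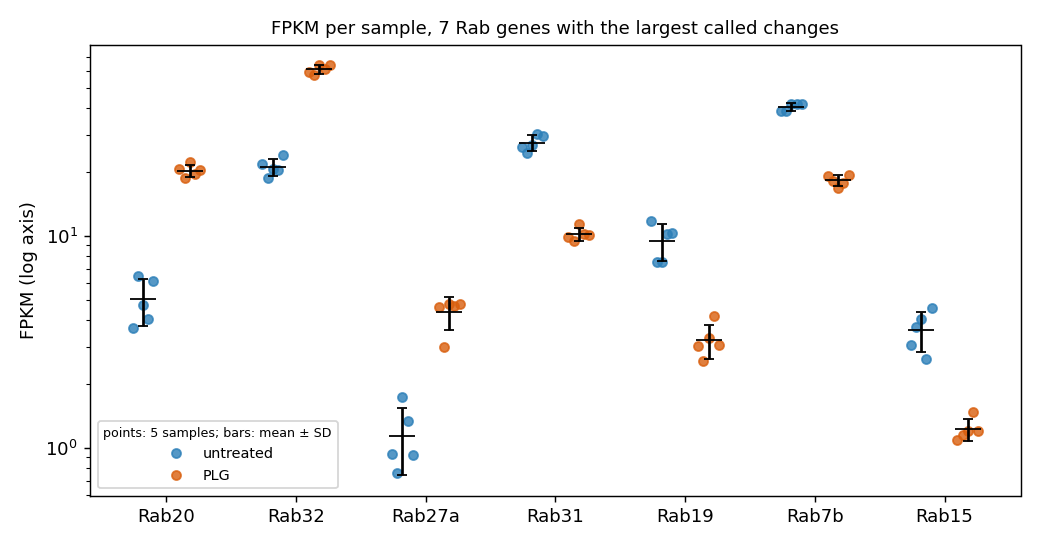
FPKM per sample (log y axis) of the 7 Rab genes that passed the test with a log2 fold change of at least 1 in size, in untreated (blue) and PLG (orange) samples, with mean ± SD over 5 samples. The groups do not overlap in any of the 7, and Rab32 reaches the highest level with PLG, at 60.9 ± 2.94 FPKM.

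To show the DNA that lies before the genes with the largest changes, the bases upstream of the RefSeq start of the pair that rose most and the pair that fell most on the log2(FPKM + 1) scale, among genes with a promoter entry, are given, on the build GRCm38.p6 and in the direction of the gene. Bases that an annotated exon covers were removed. Capitals mark a match to GAAANNGAA, the core of the interferon-stimulated response element. The stretches are Rab20, chr8:11478711-11478890, minus strand, then Rab32, chr10:10558266-10558457, minus strand, then Rab31, chr17:65772753-65773002, minus strand, and Rab19, chr6:39381103-39381174, plus strand.
Rab20: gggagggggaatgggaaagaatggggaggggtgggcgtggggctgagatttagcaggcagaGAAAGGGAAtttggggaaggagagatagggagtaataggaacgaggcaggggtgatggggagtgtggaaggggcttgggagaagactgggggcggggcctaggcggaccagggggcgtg
Rab32: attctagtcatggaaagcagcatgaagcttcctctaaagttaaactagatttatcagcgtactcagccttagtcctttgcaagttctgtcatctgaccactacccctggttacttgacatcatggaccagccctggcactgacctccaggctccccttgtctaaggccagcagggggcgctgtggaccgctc
Rab31: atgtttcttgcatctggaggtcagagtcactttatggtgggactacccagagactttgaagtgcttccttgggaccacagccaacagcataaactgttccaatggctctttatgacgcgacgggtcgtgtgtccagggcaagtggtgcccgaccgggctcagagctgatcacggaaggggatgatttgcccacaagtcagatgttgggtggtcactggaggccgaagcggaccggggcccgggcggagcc
Rab19: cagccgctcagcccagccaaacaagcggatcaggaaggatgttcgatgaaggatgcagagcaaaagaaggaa
In the Rab20 stretch the match lies at -189 to -181 relative to the start. The printed stretches of Rab32, Rab31 and Rab19 held no match to any of the 6 motifs searched, which are named with their shares further on.

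Recycling Rabs return receptors and membrane from endosomes to the cell surface, and 5 of 9 were tested, 1 higher and 2 lower. Their summed level overlapped between groups, at 71.8 to 84.2 FPKM untreated and 66.9 to 75.2 FPKM with PLG. Rab15 (chromosome 12, 76797960 to 76822908), of the recycling endosome, had the largest change. It was at 3.06, 3.70, 4.07, 2.61 and 4.59 FPKM in untreated samples 1 to 5 and at 1.09, 1.15, 1.2, 1.47 and 1.2 FPKM in PLG samples 1 to 5. All untreated samples were higher, and the log2 fold change was -1.03 (standard error 0.116, adjusted p = 3.21e-06 in limma). Rab11a, the main Rab of the recycling endosome, was at 12.1, 11.2, 11, 11.4 and 12.4 FPKM untreated and at 14, 14.6, 19.1, 14.8 and 13.9 FPKM with PLG. The groups did not overlap and PLG 3 stood above the rest, with a log2 fold change of 0.35 (standard error 0.080, adjusted p = 0.00178 in limma). Its relative Rab11b fell, from 14.5, 17.1, 14.7, 13.9 and 15.2 FPKM to 13.8, 12.1, 12.9, 13.3 and 13.8 FPKM. The gap between the groups of Rab11b was narrow (log2 fold change -0.18, limma adjusted p = 0.0233), and the call was lost without PLG 2 (0.0595) or untreated 2 (0.0527) and with a replicate block (0.0621). Rab35, the most abundant of the class and active in fast recycling, was at 27.5, 32.3, 29.0, 26.5 and 25.8 FPKM untreated and 26.7, 23.8, 24.2, 25.8 and 26.0 FPKM with PLG. It did not pass (limma adjusted p = 0.0554), with groups that overlapped, but passed as lower in 5 of the 21 alternatives, among them without untreated 4 (0.0449) or untreated 5 (0.0298). Rab14, between the Golgi and endosomes, did not pass, at 16.9 ± 0.846 and 16.0 ± 0.996 FPKM.

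Secretory Rabs bring vesicles and granules to the plasma membrane. Of 12 genes 9 were tested, and 6 rose, 2 fell and 1 did not pass, with a median log2 fold change of 0.42 beside -0.018 for all genes. That is 66.7% higher and 22.2% lower of 9 genes, beside 29.1% and 31.3% of all tested genes. Of the higher genes, Rab27a and Rab26 passed the filter mainly through their PLG samples. The summed level of the class was 146 to 169 FPKM untreated and 219 to 251 FPKM with PLG, ranges that did not overlap. Rab8b and Rab10, both of transport to the cell surface, made up most of that sum. Rab8b, the most abundant of the class, was at 64.3, 69.4, 56.2, 66.5 and 65.4 FPKM in untreated samples 1 to 5 and at 110.0, 100.4, 122, 114 and 109 FPKM in PLG samples 1 to 5. Every PLG sample was higher, with a log2 fold change of 0.78 (standard error 0.063, adjusted p = 1.19e-07 in limma). Rab10, which also carries toll-like receptor 4 to the macrophage surface, rose from 44.7 ± 1.62 to 77.2 ± 3.65 FPKM (log2 fold change 0.78, standard error 0.046, adjusted p = 4.26e-09 in limma).

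Rab27a (chromosome 9, 73044854 to 73097629), which docks granules and exosome-bearing endosomes at the plasma membrane, rose from a low level. It was at 0.934, 0.763, 1.74, 1.34 and 0.922 FPKM in untreated samples 1 to 5 and at 4.62, 2.98, 4.77, 4.67 and 4.79 FPKM in PLG samples 1 to 5. PLG 2 was below the other PLG samples but above every untreated one (log2 fold change 1.33, standard error 0.139, adjusted p = 1.67e-06 in limma). In the untreated group only samples 3 and 4 reached 1 FPKM, so Rab27a was tested and counted as higher mainly through its PLG samples. Rab13, of junctions and cell migration, rose from 2.28 ± 0.598 to 4.4 ± 0.582 FPKM. Rab8a, the relative of Rab8b, rose from 21.0 ± 2.86 to 26.3 ± 0.940 FPKM, and Rab26, of secretory granules, from 0.592 ± 0.319 to 1.11 ± 0.210 FPKM, both with groups that overlapped. Rab26 lay near the filter of 1 FPKM. Only untreated 2 (1.10 FPKM) reached it in the untreated group, so Rab26 was tested and counted as higher mainly through its PLG samples. Rab3d, of regulated granule release, fell. Its level was 16.9, 19.4, 18.4, 17.5 and 18 FPKM in untreated samples 1 to 5 and 9.35, 9.15, 9.14, 7.81 and 10.2 FPKM in PLG samples 1 to 5, and the log2 fold change was -0.91 (standard error 0.067, adjusted p = 4.67e-08 in limma). Its groups lay far apart, unlike those of Rab44, a large Rab of granules, which fell from 2.27 ± 0.644 to 1.27 ± 0.436 FPKM with overlap. Rab3a, best known from synaptic vesicles, was at 0.751, 1.93, 1.51, 1.81 and 1.39 FPKM untreated and, with PLG, 1.36, 1.17, 1.44, 1.74 and 0.768 FPKM, which did not pass.

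ER and Golgi Rabs move newly made proteins through the early secretory route. Of 13 genes 9 were tested, 1 higher, 3 lower and 5 not past the threshold, and the summed level was 230 to 253 FPKM untreated and 189 to 209 FPKM with PLG. Rab1a and Rab1b, which act in the step from ER to Golgi, fell. Rab1a, the most abundant of the class, was at 73.9, 73.6, 67.6, 69.3 and 80.2 FPKM in untreated samples 1 to 5 and at 52.0, 47.9, 55.5, 55.9 and 50.3 FPKM in PLG samples 1 to 5. All PLG samples were lower, with a log2 fold change of -0.47 (standard error 0.058, adjusted p = 8.88e-06 in limma). Rab1b fell from 71.7 ± 5.85 to 49.2 ± 3.27 FPKM (log2 fold change -0.53, standard error 0.063, adjusted p = 5.62e-06 in limma). Rab19 (chromosome 6, 39381175 to 39390380), found at the Golgi, fell most, from 11.8, 7.54, 7.55, 10.2 and 10.3 FPKM to 3.01, 2.57, 3.29, 4.17 and 3.05 FPKM in samples 1 to 5. The untreated samples of Rab19 varied more than those with PLG but did not overlap them (log2 fold change -1.30, standard error 0.128, adjusted p = 8.52e-07 in limma).

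Rab6a, of transport from the Golgi back to the ER, rose from 23.4 ± 2.26 to 27.8 ± 1.93 FPKM with overlap (limma adjusted p = 0.00868), a call lost under quantile normalization (0.0580). Rab6a shares 19.0% of its windows with other genes, most with Mrpl48 on the opposite strand. Rab2a, also of transport between ER and Golgi, was at 44.9 ± 0.924 and 44.8 ± 2.47 FPKM and Rab18, of the ER and lipid droplets, at 11.3 ± 1.93 and 10.5 ± 1.06 FPKM. Neither passed, nor did Rab33b, which takes part in autophagy (5.44 ± 0.724 and 5.21 ± 1.01 FPKM), Rab6b (1.09 ± 0.296 and 1.14 ± 0.222 FPKM) or Rab43 (1.94 ± 0.503 and 2.19 ± 0.168 FPKM). The level of Rab43 is uncertain, since 74.5% of its windows occur in other genes, most in Gm45140. For Rab33b that share is 21.2%.

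Of the 5 remaining genes 3 were tested. Rab12, which sends transferrin receptor from recycling endosomes to lysosomes, was at 18, 19.0, 19.4, 18.7 and 19.4 FPKM untreated and at 24.6, 24.9, 29.8, 27.9 and 24.1 FPKM with PLG. All PLG samples were higher (log2 fold change 0.45, standard error 0.062, adjusted p = 2.48e-05 in limma). Rab40c, which joins a ubiquitin ligase, fell from 8.61 ± 0.904 to 5.46 ± 0.917 FPKM, and Rab28, known from cilia, did not pass, at 2.84 ± 0.140 and 3.07 ± 0.620 FPKM.

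Among the 17 Rab genes under the filter, a fit without the filter called 2 higher and 1 lower, where it called 9.15% of all genes under the filter higher and 6.29% lower. Rab39b, best known from neurons, had 0 reads in the untreated group and 173 in the PLG group, every PLG library holding some, at least 43.1-fold higher when 3 reads in all are taken as the limit that the untreated count of 0 allows. In PLG samples 1 to 5 it was at 0.240, 0.231, 0.078, 0.260 and 0.216 FPKM (limma adjusted p = 2.23e-04). The bound covers counting error only, and 16.2% of its windows occur in another gene. Rab30, of the Golgi, went from 0.0912 ± 0.0624 to 0.510 ± 0.194 FPKM (limma adjusted p = 0.00123). Rab37, of secretory granules, went from 0.158 ± 0.0490 to 0.0822 ± 0.0261 FPKM (limma adjusted p = 0.0283). The other 14 did not pass: Rab39, Rab38 and Rab42 of the late class, Rab4a, Rab4b, Rab17 and Rab25 of recycling, Rab3b and Rab27b of secretion, Rab2b, Rab33a and Rab36 of the Golgi, and Rab23 and Rab40b. Of these Rab23 had the highest group mean with PLG, at 0.939 ± 0.0885 FPKM.

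In the order of levels, untreated macrophages had Rab7 first, then Rab5c, Rab1a, Rab1b, Rab8b, Rab2a, Rab10 and Rab7b. With PLG the order was Rab7, Rab8b, Rab5c, Rab10, Rab32, Rab1a, Rab1b and Rab2a. Rab1a and Rab1b, neighbours in both orders, overlapped in their samples. Rab32 moved from rank 13 to rank 5 and Rab20 from rank 30 to rank 15, while Rab31 moved from rank 11 to rank 24 and Rab7b from rank 8 to rank 17.

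**Figure D3:**
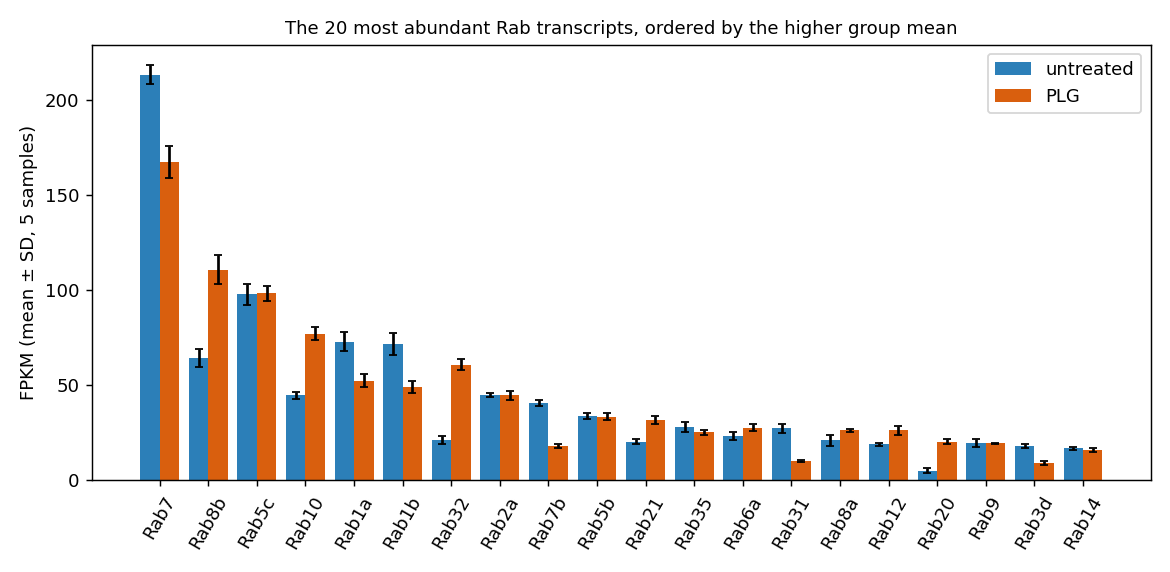
Mean FPKM ± SD (5 samples) of the 20 most abundant Rab transcripts in untreated (blue) and PLG (orange) samples, ordered by the higher of the group means. Rab7 leads in both groups, and with PLG Rab8b (111 ± 7.70 FPKM) stands beside Rab5c (98.3 ± 4.09 FPKM).

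Close relatives within the family were compared directly, by the log2 ratio of their FPKM + 1 within each sample, in a two-sided exact permutation test whose smallest p is 0.00794, adjusted over 10 pairs. In 7 of the 10 pairs the ratio differed between groups (each exact permutation p = 0.00794, adjusted 0.0113), with no overlap between groups. The share among other pairs of genes was not counted, and 47.2% of all single tested genes did not overlap either. Each of the 7 pairs holds a gene that limma called in the same samples, and Rab5a recurs among them. Whether the count is particular to close relatives was therefore not tested. The largest difference was that of Rab22a over Rab31, whose log2 ratio went from -1.28 ± 0.169 to 0.16 ± 0.0776. Rab22a was at 9.07, 11.7, 9.86, 11.1 and 12.1 FPKM untreated and at 10.1, 10.9, 13.7, 11.7 and 11.6 FPKM with PLG, so Rab31 was the more abundant of the pair without PLG and Rab22a with it. The ratio of Rab3a over Rab3d differed by 0.81 and that of Rab7 over Rab7b by 0.76, since Rab3d fell while Rab3a did not pass, and Rab7b fell further than Rab7. In FPKM, Rab7 was 5.27 times as abundant as Rab7b untreated and 9.20 times with PLG.

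Rab11a over Rab11b changed by 0.53, from 0.777 to 1.16 times in FPKM, so the order of these relatives turned as well. With PLG the ratio was 1.01 to 1.48 over the samples. Of the windows of Rab11b 13.6% occur in other genes, most in Rab11b-ps2, and of those of Rab11a 1.85%. Reads of Rab11b may be lost to such copies, so the order with PLG is uncertain. Rab8a over Rab8b changed by -0.46, since Rab8b rose more than Rab8a. Rab5a rose relative to both relatives, by 0.30 against Rab5b and 0.28 against Rab5c. The pairs Rab1a and Rab1b (difference 0.06, exact permutation p = 0.556, adjusted 0.617), Rab5b and Rab5c (-0.02, exact permutation p = 0.746, adjusted 0.746) and Rab6a and Rab6b (0.20, exact permutation p = 0.238, adjusted 0.298) did not pass, which does not show that they respond alike.

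**Figure D4:**
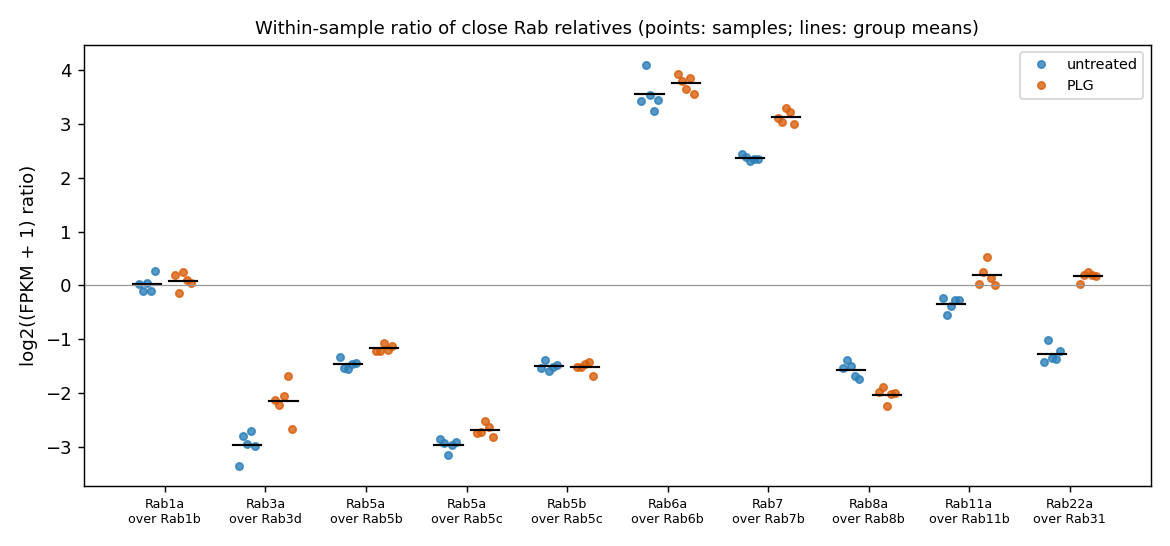
Log2 ratio of FPKM + 1 within each sample for 10 pairs of close Rab relatives, with points for 5 untreated (blue) and 5 PLG (orange) samples and lines for group means. Rab22a over Rab31 and Rab11a over Rab11b cross the line of equal levels, while the Rab1a over Rab1b points of both groups lie around it.

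The machinery that runs the Rab cycle was read from lists of regulators. Of 39 tested genes on the list of exchange factors 8 were higher and 15 lower, beside the background of 29.1% and 31.3%. Their median log2 fold change was 0.02. Not every gene on the list is itself an exchange factor. This list also held Rab3gap1 and Rab3gap2, which are named as GTPase-activating proteins of Rab3, and Rab3gap2 was among the 15 lower. Rab3il1, an exchange factor for Rab8 and Rab3 proteins, fell from 11.4 ± 0.652 to 0.811 ± 0.185 FPKM (log2 fold change -2.78, standard error 0.084, adjusted p = 6.20e-12 in limma). Only PLG 5 (1.10 FPKM) reached the filter in the PLG group, so Rab3il1 was tested mainly through its untreated samples. The related DENN domain factors Dennd4a and Dennd4c, both exchange factors for Rab10, moved apart. Dennd4a rose from 4.08 ± 0.260 to 13.7 ± 0.208 FPKM and Dennd4c fell from 25.8 ± 2.16 to 9.30 ± 0.657 FPKM. Dennd5a rose from 20.2 ± 0.844 to 49.4 ± 1.94 FPKM. Rabgef1, which activates Rab5, rose from 7.50 ± 0.550 to 15.0 ± 1.3 FPKM, and Rin3, which acts on Rab5 and Rab31, fell from 23.2 ± 0.838 to 12.4 ± 1.3 FPKM. Ric1, part of the exchange factor for Rab6 (27.4 ± 1.81 and 28.9 ± 1.42 FPKM), and Sbf1 (23.7 ± 1.74 and 24.3 ± 1.62 FPKM) did not pass.

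GTPase-activating proteins numbered 34 tested, 11 higher (32.4%) and 14 lower (41.2%), with a median of -0.14, beside the background of 29.1% and 31.3%. Tbc1d4, which switches off Rab10 and holds back glucose transporter export in fat and muscle, rose from 5.29 ± 1.14 to 45.2 ± 2.37 FPKM (log2 fold change 2.89, standard error 0.101, adjusted p = 2.42e-11 in limma). Tbc1d8 rose from 17.2 ± 1.23 to 45.9 ± 2.34 FPKM and Rabgap1l from 1.14 ± 0.201 to 6.27 ± 0.328 FPKM. Tbc1d16, which acts on Rab4, fell from 3.33 ± 0.842 to 0.384 ± 0.151 FPKM. Its PLG samples were all under the filter (at most 0.613 FPKM), so Tbc1d16 was tested through its untreated samples alone. Tbc1d20, which acts on Rab1 and Rab18, fell from 49.3 ± 1.79 to 33.1 ± 0.750 FPKM, and Tbc1d22a from 22.9 ± 0.480 to 15.1 ± 0.306 FPKM. Tbc1d10b (31.6 ± 0.465 and 33.8 ± 1.27 FPKM) and Tbc1d13 (23.6 ± 1.97 and 24.3 ± 2.26 FPKM) did not pass, and Tbc1d10b passed as higher in 3 alternatives, among them without PLG 3.

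The list for prenylation and membrane extraction also held membrane proteins of the PRA1 and Yipf families. Of its 15 genes, all tested, 4 rose (26.7%) and 3 fell (20%), beside the background of 29.1% and 31.3%. Gdi2, which takes Rabs off membranes, rose from 44.6 ± 1.17 to 51.3 ± 1.12 FPKM, a call lost under quantile normalization (limma adjusted p = 0.331). Praf2, of the PRA1 family of membrane proteins, rose from 5.91 ± 0.553 to 8.19 ± 0.840 FPKM, and its relative Arl6ip5 fell from 86.6 ± 4.70 to 62.7 ± 2.23 FPKM. Chml, an escort protein that presents Rabs for prenylation, fell from 2.91 ± 0.470 to 1.67 ± 0.209 FPKM, and Yipf6 from 6.43 ± 0.838 to 5.27 ± 0.0951 FPKM, a call lost without untreated 5 (limma adjusted p = 0.0513). Yipf3 (20.3 ± 1.98 and 19.7 ± 1.59 FPKM) and Yipf4 (14.9 ± 1.58 and 16.4 ± 2.53 FPKM) did not pass.

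Effectors, which carry out what an active Rab sets in motion, were tested for 40 genes. Of these 13 were higher (32.5%) and 18 lower (45%), beside the background of 29.1% and 31.3%, with a median of -0.21. The Rab11 effectors split, with Rab11fip1 rising from 5.75 ± 0.431 to 24.6 ± 0.588 FPKM and Rab11fip5 falling from 24.1 ± 1.64 to 8.18 ± 0.641 FPKM. Micall2, which binds Rab8 and Rab13, rose from 6.003 ± 0.661 to 13.1 ± 0.641 FPKM, and the inositol phosphatase Inpp5b from 14.5 ± 1.74 to 33.3 ± 0.855 FPKM. The lysosomal Rab7 effector Plekhm1 fell from 52.1 ± 2.65 to 19.9 ± 1.77 FPKM and the motor Myo5a, which reaches Rab27a through adaptors, from 64.4 ± 1.84 to 24.0 ± 1.14 FPKM. Golga2, of the cis-Golgi (15.7 ± 1.35 and 15.6 ± 1.37 FPKM), and Acap2, which binds Rab35 (25.1 ± 1.83 and 25.3 ± 0.974 FPKM), did not pass.

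The 3 kinases on the list that phosphorylate Rabs were higher. Lrrk1, which acts on Rab7, rose from 9.25 ± 0.780 to 28.4 ± 1.61 FPKM, Lrrk2, which acts on Rab8, Rab10 and Rab29, from 3.53 ± 0.345 to 11.2 ± 1.09 FPKM (log2 fold change 1.43, standard error 0.079, adjusted p = 2.24e-09 in limma) and Tbk1 from 29.4 ± 1.91 to 37.6 ± 1.16 FPKM. Ppm1h, a phosphatase that reverses Lrrk2 phosphorylation of Rabs, fell from 13.8 ± 0.268 to 8.94 ± 0.544 FPKM. The other phosphatase, Ppm1m, named here after its values were seen, rose from 14.5 ± 1.98 to 16.7 ± 1.02 FPKM (limma adjusted p = 0.0463), a call lost in 13 of 21 alternatives, among them without PLG 1, 3, 4 or 5 or untreated 1, 4 or 5 (adjusted p 0.00578 to 0.205 over the 21). Of the 5 genes on the list 4 thus rose and 1 fell, a small list to set beside the background of 29.1% higher and 31.3% lower. Of 6 Rab-like genes 2 rose and 1 fell: Rabl3 from 1.3 ± 0.223 to 1.79 ± 0.370 FPKM, Ift22 from 4.85 ± 0.652 to 5.72 ± 0.340 FPKM, and Cracr2a, a large Rab of calcium signalling, from 1.92 ± 0.433 to 1.10 ± 0.260 FPKM. The calls of Rabl3 and Ift22 were lost in many alternatives, among them without PLG 4 (limma adjusted p = 0.0999 and 0.0992) or untreated 3 (0.0782 and 0.0893). Rabl6 (8.95 ± 0.651 and 8.998 ± 0.807 FPKM) and Ift27 (2.13 ± 0.427 and 1.62 ± 0.400 FPKM) did not pass.

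**Figure D5:**
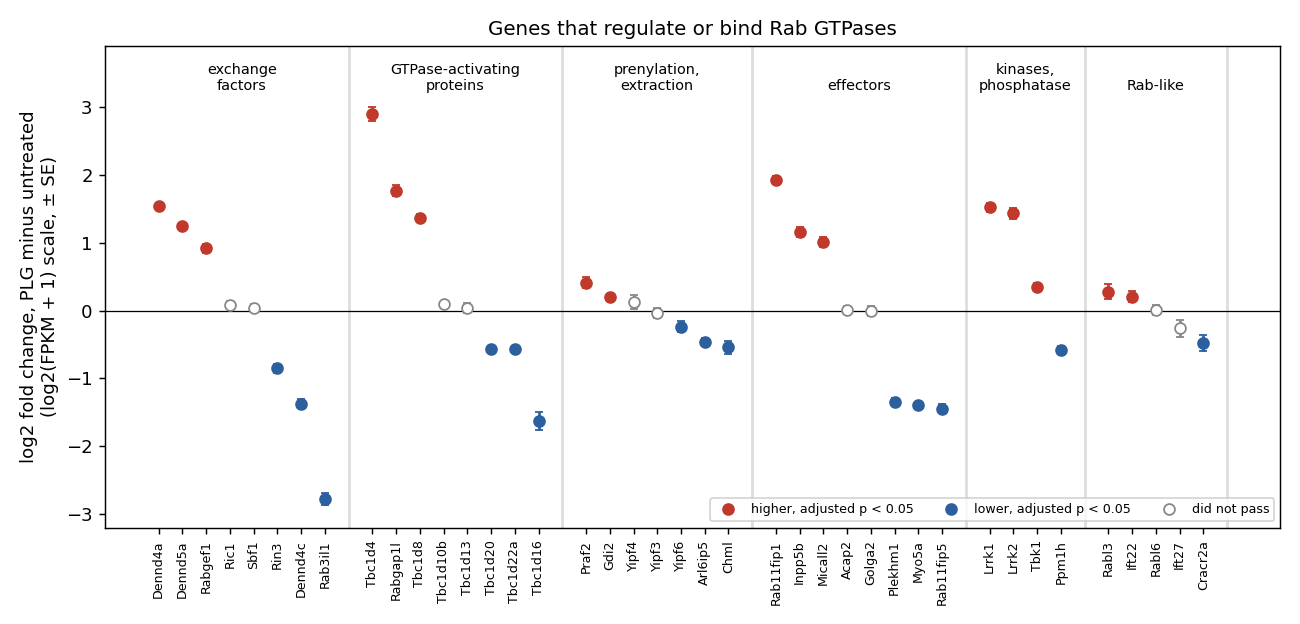
Log2 fold change with PLG (y axis, on the log2(FPKM + 1) scale, bars are SE) of regulators and binding partners of Rab GTPases described in the text, by list. Ppm1m, Rab3gap1 and Rab3gap2 are not plotted. Tbc1d4 is the highest at 2.89 and Rab3il1 the lowest at -2.78, and the lists hold genes in both directions.

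The 250 bases before the RefSeq start were searched for 6 motifs on both strands, with overlaps allowed, in 46 Rab genes with an entry, 35 of them tested (12 higher, 10 lower and 13 that did not pass). Rab18, Rab2a, Rab7b, Rab26 and Rab44 were tested without an entry. The E-box CACGTG occurred in 4 of the 12 higher genes (Rab20, Rab21, Rab5a and Rab27a), in 0 of 10 lower and in 0 of 13 others, where a gene counts if any of its windows holds the motif. Counted the same way, 6.86% of all 27025 genes in the promoter table held it, and counted by window 6.02% of 32851. The E-box holds a CpG, and the tested Rab windows had a median of 18 CpG where all windows had 6. By group the median was 20 in higher genes, 15 in lower genes and 18 in those that did not pass. Sites that carry the E-box, here in capitals, are shown in the direction of the gene at chr8:11478671-11478696 for Rab20, chr10:115315606-115315631 for Rab21, chr17:53478989-53479014 and chr17:53479129-53479154 for Rab5a, and chr9:73063898-73063917 for Rab27a, where the site belongs to another of its starts. Rab20 and Rab21 lie on the minus strand and the others on the plus strand, and the Rab20 site falls within exons that GENCODE annotates for Rab20 and E230013L22Rik.
Rab20: gccgggcaccCACGTGgtcgcagggc
Rab21: ccaccgcggtCACGTGacgaggggtg
Rab5a, far: ttggagaagaCACGTGacgcaacccc
Rab5a, near: ccggggatgtCACGTGacttcggccc
Rab27a: cttgCACGTGctcctccgtc
These sites begin 46 bases before the start in Rab20, 30 in Rab21, 235 and 95 in Rab5a and 246 in Rab27a. The other motifs were found in 1 or 0 genes of each group: NF-kB (8.23% of all genes) in Rab11a, Rab15 and Rab28, the AP-1 site TGANTCA (7.82%) in Rab15 and Rab34, GAAANNGAA (8.18%) in Rab20 and Rab19, the cyclic AMP element TGACGTCA (1.77%) in Rab5a and the PU.1 core GAGGAAGT (2.79%) in Rab32. A match is a description of the sequence and no evidence that a factor binds there.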

How the data were processed

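RNA-seq of 10 samples was deposited as 1 table of FPKM made by the authors, with 3 decimals and with gene lengths and positions per the file headers. Tools listed in the submitters' processing notes are STAR 2.7.3a, featureCounts 2.0.0, cutadapt 2.10, DESeq2 1.24.0 and FastQC 0.11.9 (roles and order not stated), with the build GRCm38.p6. Which annotation release and strand setting served is not given in the sources used here, and overlapping genes or close copies may divide reads between them. Reads behind each FPKM were recovered from the steps of low values (100% of the values tested were whole within 0.1 read). Values were analysed as log2(FPKM + 1) with limma 3.58.1 (R 4.3.3, intensity trend, no covariate) on 9997 genes, adjusted by Benjamini and Hochberg over all of them. Genes under the filter came from a fit without it. The model was tested on simulated data with independent noise and few changed genes, unlike these data, so that test does not bear on the calls given here. Shared 50-base windows were counted in GENCODE M21 transcripts, and promoters are RefSeq's. Members and lists were chosen with earlier results of these data known. Per-sample values are given for genes past the threshold with a log2 fold change of at least 1 in size, the most abundant gene of each class and the 4 pairs that differed most. From each other list came up to 3 called genes per direction and the 2 most abundant that did not pass. A gene that this rule names is not reported here. The 21 alternatives covered pseudocount, filter, scaling, model, replicate block and each sample left out. Removal of 2 repeat-like gene models was chosen after seeing the data.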

Additional observations from a re-analysis of the deposited data

Results flagged for a closer look

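In 7 of 164 groups of 5 samples examined, 1 sample stood apart from the rest by Dixon's criterion, which chance alone meets in about 1 in 20 groups. Among Rab genes, Rab11a was highest in PLG 3 at 19.1 FPKM, Rab5c was highest in untreated 3 at 107.1 FPKM and Rab27a was lowest in PLG 2 at 2.98 FPKM. Among regulators, Ric1 was lowest in untreated 3 at 24.2 FPKM, Sbf1 highest in untreated 5 at 26.7 FPKM, Yipf4 highest in PLG 3 at 20.8 FPKM and Ift27 lowest in PLG 2 at 0.926 FPKM. The calls of Rab11a and Rab27a held with any 1 sample left out.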

How the results depend on the processing

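Of the 40 tested Rab genes 29 could be run in all 21 alternatives and 21 of them had the same call and direction throughout. The other 11 fell under the filter of 5 FPKM, and 10 of them had the same call in the remaining 20. With a fold of at least 1.5 required, 7 Rab genes were higher and 5 lower, and 1448 and 1326 of all tested genes. Rab5c, which did not pass, was lower under quantile normalization (log2 fold change -0.22), and the cause was not tested. Rab5b, Rab14 and Rab2a passed as lower only there, and voom on the recovered reads added Rab34 and Rab35. With each sample left out in turn, 13 Rab genes were higher and 11 to 13 lower, and 7 to 8 pairs of relatives passed. Replicate numbers did not pair the samples (correlations of same-numbered deviations -0.121 to 0.0988, and 1 of 5 untreated samples correlated best with its own number). A replicate block gave 13 Rab genes higher and 11 lower, and 0 pairs of relatives, since a sign-flip test of 5 pairs cannot pass. Without the 2 repeat-like gene models Gm10800 and Gm10801, which took 0.718 to 5.37% of reads untreated and 0.119 to 3.72% with PLG, 13 Rab genes were higher and 13 lower. Depth limits the genes under the filter, where counts were low.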
